A study of Mus musculus with 9 samples.

Results

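Axon guidance genes of the semaphorin, plexin, neuropilin, ephrin, Eph, Slit, Robo, netrin and Unc5 families were followed in cultured mouse myoblasts, the dividing precursors of skeletal muscle fibres. They were taken by gene symbol, which gave 69 rows of 47729 in the count files and 67 distinct symbols, since Ntn5 has 3 rows. The 9 libraries of messenger RNA came from FVB/N cells labelled as skeletal muscle myoblasts and fell into 3 groups of 3. The first was the parental population (PAR), and the others were reserve cell populations named FRCs Cycle 1 (FRC1) and SRCs Cycle 3 (SRC3), in the spelling of the labels. Reserve cells are the mononucleated cells that do not fuse when a myoblast culture forms myotubes. By the protocol, the reserve populations had been grown on through passages under proliferation conditions between isolation and harvest. The labels name no transgene, deletion or drug, and they do not say whether the replicates were separate cultures, so that p-values measure the spread between these libraries, which may be technical.

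These families carry signals between cells. Semaphorins bind plexins, with neuropilins as co-receptors for most of the secreted class 3 semaphorins. Ephrins are held on the cell surface, and their contact with Eph receptor tyrosine kinases can signal into both cells. Slit proteins bind Robo receptors, and netrins bind Unc5 receptors as well as Dcc and neogenin. The families were named for their steering of growing axons, and in muscle they are also known for roles in the migration of precursor cells, in the contact between myogenic cells and in motor innervation.

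Levels are given in CPM, a gene's reads scaled to the total gene count of its library with TMM factors, and as mean ± SD over the 3 libraries of a group. Gene counts came to 13012996 to 14336279 per library, at which 3 counts in a library correspond to 0.21 to 0.231 CPM. Of 8 myoblast markers, 7, among them Myod1, Des and Pax7, were present in every group (summed 3048 to 3146 CPM in PAR, 2948 to 2984 in FRC1, 2121 to 2277 in SRC3), and Myf5 had no read in PAR or FRC1 and was near 0 in SRC3. Endothelial, neuronal and leukocyte markers summed to at most 0.613, 0.84 and 4.4 CPM in every library, with Kdr, Tie1, Emcn, Rbfox3, Snap25, Elavl4 and Adgre1 at 0 throughout. Other marker lists moved with the groups. The 5 markers of differentiating muscle that were found, of 6 listed, summed to 64.9 to 77.0 CPM in FRC1, against 7.58 to 9.66 in PAR and 6.61 to 18.1 in SRC3. Pericyte and smooth muscle markers summed to 167 to 198 CPM in PAR, 348 to 506 in FRC1 and 60.4 to 73.3 in SRC3, mostly through Acta2 and Tagln (in SRC3 through Cspg4), with Pdgfrb and Myh11 at or near 0. Fibroblast markers, nearly all of it Col3a1, summed to 554 to 585 CPM in PAR, 283 to 398 in FRC1 and 273 to 301 in SRC3, with Lum at 0. Schwann cell markers summed to 1.61 to 2.42 CPM in PAR, 1.96 to 2.35 in FRC1 and 14.96 to 31.2 in SRC3, there mostly Ngfr, with Sox10 and S100b at 0. The part of these differences in the guidance results was not tested, and in such bulk samples fewer cells that use a gene and less RNA per cell cannot be told apart.

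Of the 69 rows, 48 had enough reads to be tested, 12 had a few reads and 9 had none in any library. In FRC1 against PAR, 12 of the 48 were higher and 14 lower at an adjusted p under 0.05, which is 54.2% of them, where 28.3% of all 12540 tested genes passed (13.6% higher and 14.7% lower). In SRC3 against PAR, 11 were higher and 17 lower, 58.3% of the 48 against 37.9% of all tested genes (17.8% higher, 20.2% lower). In SRC3 against FRC1, 12 were higher and 16 lower, again 58.3%, against 33.5% (15.5% higher, 18% lower). The number lower went from 17 to 11 in SRC3 against PAR without PAR replicate 3 or with a minimum of 5 CPM in 3 libraries, and from 16 to 10 in SRC3 against FRC1 without FRC1 replicate 3. Changes of at least 2-fold that passed were seen in 4, 13 and 13 members in these comparisons, 8.33, 27.1 and 27.1% of the 48, where 2.63, 6.71 and 6.53% of all tested genes changed that much. Plxna4 passed the read minimum through SRC3 only and so had to differ; without it 27 of 47 members were called in each SRC3 comparison (57.4%), 12 of them by at least 2-fold. The members' log2 fold changes had medians of -0.0059, -0.15 and -0.12, against 0.0034, 0.0057 and -0.00028 over all tested genes. The median size of a member's log2 fold change was 0.37, 0.34 and 0.41, against 0.16, 0.18 and 0.16 over all tested genes. FRC1 and SRC3 are set against the same PAR libraries, so the comparisons with PAR are not independent of each other.

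**Figure D1:**
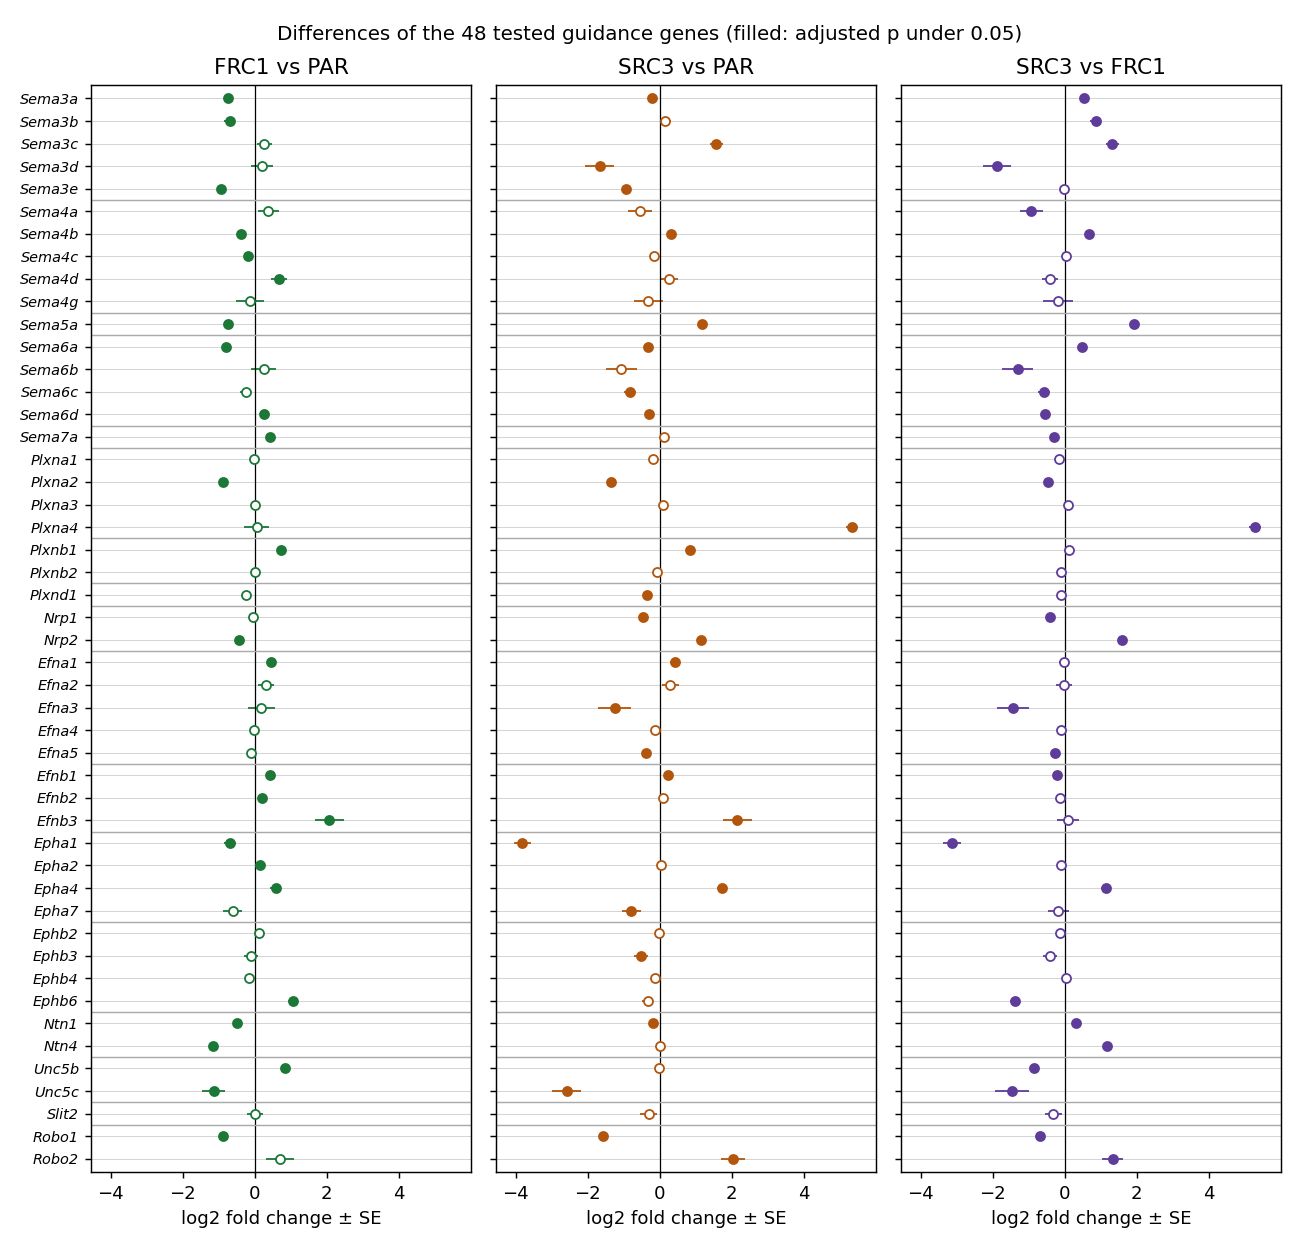
Log2 fold changes ± SE (x axis) of the 48 tested guidance genes (rows, grouped by family) in FRC1 against PAR, SRC3 against PAR and SRC3 against FRC1, on a shared scale. Filled points passed an adjusted p of 0.05; Plxna4 stands far to the right in both SRC3 panels and Epha1 far to the left.

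The promoters of 4 members that moved in several comparisons are shown because their genes went in different directions: Epha1 and Robo1 fell in both reserve populations, and Nrp2 and Sema5a fell in FRC1 and rose in SRC3. Each is a stretch of 200 bases that ends 50 bases before the RefSeq gene start (GRCm38.p6), 5′ to 3′ on the gene's own strand. Capitals mark the GC box GGGCGG, a site type bound by Sp1 family factors, on either strand. Epha1 is at chr6:42373319-42373518, minus strand, Nrp2 at chr1:62703067-62703266, plus strand, Sema5a at chr15:32244563-32244762, plus strand, and Robo1 at chr16:72662899-72663098, plus strand.
Epha1: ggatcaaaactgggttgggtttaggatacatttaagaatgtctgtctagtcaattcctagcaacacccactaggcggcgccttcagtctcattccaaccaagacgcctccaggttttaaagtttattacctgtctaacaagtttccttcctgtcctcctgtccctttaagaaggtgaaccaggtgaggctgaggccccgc
Nrp2: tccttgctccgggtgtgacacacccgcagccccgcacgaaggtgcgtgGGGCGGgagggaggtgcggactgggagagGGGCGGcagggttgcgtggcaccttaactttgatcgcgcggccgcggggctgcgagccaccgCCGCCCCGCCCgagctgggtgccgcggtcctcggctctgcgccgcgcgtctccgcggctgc
Sema5a: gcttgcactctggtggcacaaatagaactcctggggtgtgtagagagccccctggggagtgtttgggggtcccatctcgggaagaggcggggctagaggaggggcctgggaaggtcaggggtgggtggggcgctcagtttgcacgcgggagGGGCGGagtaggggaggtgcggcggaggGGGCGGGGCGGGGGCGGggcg
Robo1: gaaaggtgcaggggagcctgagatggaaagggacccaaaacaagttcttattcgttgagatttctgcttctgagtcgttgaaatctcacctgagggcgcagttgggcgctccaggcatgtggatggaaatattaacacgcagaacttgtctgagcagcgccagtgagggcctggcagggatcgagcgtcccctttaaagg
The Nrp2 and Sema5a stretches hold 4 GC boxes each, and those of Epha1 and Robo1 hold 0. This split does not extend to the other members with the same calls in every comparison. Plxna2 and Unc5c, called like Epha1 and Robo1, hold 2 and 0 in their stretches of the same length. Sema4b, called like Nrp2 and Sema5a, holds 0 and 1 at its separate RefSeq starts. The 300-base RefSeq windows, which run from the same first base to 50 bases past the start, hold 5, 5, 3 and 0 in Nrp2, Sema5a, Epha1 and Robo1, so the difference of Epha1 from the rising genes depends on where the stretch ends. In the printed stretches CG dinucleotides number 28 in Nrp2, 12 in Sema5a, 8 in Robo1 and 4 in Epha1. The RefSeq start of Robo1 lies inside the longer span that GENCODE M21 gives the gene. Such windows were given for 42 of the 48 tested members, 58 windows in all. Of these 43, or 74.1%, hold a GC box, against 63.8% of the 11628 windows of tested genes and 35.7% of all 32851 windows. The motif was searched on both strands, and a match describes these letters, not a bound site.

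Levels of different genes were compared per kilobase of annotated exons. Plxna1, Epha2 and Sema7a led, at 74.2, 72.8 and 56.1 CPM per kb in PAR. Plxnb2 followed at 42.7, then Sema3e at 24.4, Ntn1 at 22.7, Unc5b at 20.6, Epha1 at 15.9 and Efnb2 at 15.1 CPM per kb. Slit2, the only Slit gene that was tested, stood at 0.126 CPM per kb, and Plxna4 was the lowest tested member in PAR at 0.041. In SRC3 Epha2, Plxna1, Sema7a and Plxnb2 were again the 4 highest, at 74.8, 65.8, 61.0 and 40.5 CPM per kb, while Epha1 stood at 1.12 and Plxna4 at 1.70.

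**Figure D2:**
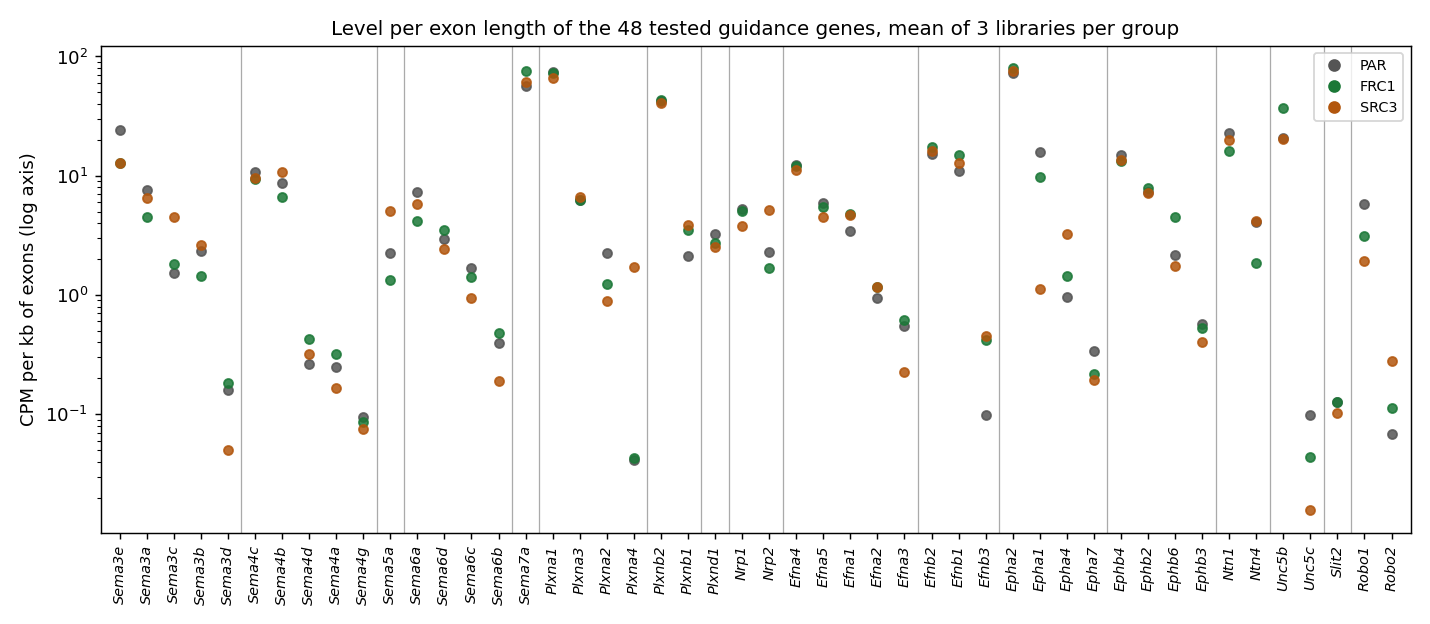
Mean level per kb of exons (y axis, log scale, CPM per kb) of the 48 tested guidance genes, grouped by family, in PAR, FRC1 and SRC3. The 3 groups lie close together for the most abundant receptors, such as Epha2 (72.8 in PAR and 74.8 in SRC3), and apart for Plxna4, Epha1 and Unc5c.

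Among the secreted class 3 semaphorins Sema3e, Sema3a and Sema3b fell in FRC1 and none rose, while SRC3 had Sema3c higher than PAR and Sema3e, Sema3d and Sema3a lower. Sema3e, a ligand that binds plexin D1 without a neuropilin, stood at 221, 223 and 235 CPM in PAR, 140.0, 104 and 114 in FRC1, with 123, 116 and 116 in SRC3. All 6 reserve libraries lay below all PAR libraries, and FRC1 and SRC3 overlapped. The fall was 1.90-fold in FRC1 (log2 fold change -0.93, SE 0.083; adjusted p = 3.4e-06) and 1.92-fold in SRC3 (log2 fold change -0.94, SE 0.083; adjusted p = 8.0e-07). Sema3a, the class's best known repellent, was at 108, 102 and 107 CPM in PAR, 69.9, 58.9 and 60.1 in FRC1, with 93.3, 100.4 and 78.5 in SRC3. FRC1 lay below every other library, 1.68-fold below PAR (log2 fold change -0.75, SE 0.082; adjusted p = 7.5e-06). In SRC3 it was 1.16-fold below PAR (adjusted p = 0.041), a call lost with the stricter filter (0.054), without PAR replicate 1, 2 or 3 (0.13, 0.055 and 0.11), without FRC1 replicate 3 (0.056) or without SRC3 replicate 1 or 3 (0.072 and 0.16), and 1.44-fold above FRC1 (adjusted p = 1.2e-04).

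Sema3c, a semaphorin known for its role in the cardiac outflow tract, went the other way. It stood at 9.80, 10.5 and 12.3 CPM in PAR, 9.62, 15.8 and 13.4 in FRC1, with 32.3, 39.1 and 25.9 in SRC3. The 3 SRC3 libraries were above the other 6 but spread widely among themselves, and FRC1 replicate 1 lay below every PAR library while replicates 2 and 3 lay above them. The rise in SRC3 was 2.98-fold against PAR (log2 fold change 1.58, SE 0.19; adjusted p = 7.3e-05) and 2.50-fold against FRC1 (log2 fold change 1.32, SE 0.18; adjusted p = 2.6e-04), and the difference of FRC1 from PAR did not pass (adjusted p = 0.4). Sema3b was at 11.9, 9.19 and 12.5 CPM in PAR, 8.26, 5.88 and 6.63 in FRC1, with 11.5, 15.04 and 11.1 in SRC3. FRC1 was the low group, 1.63-fold below PAR (log2 fold change -0.70, SE 0.16; adjusted p = 0.0026) and 1.82-fold below SRC3 (adjusted p = 2.6e-04). Sema3d was scarce, with 20, 15 and 22 reads in the PAR libraries, 14, 25 and 27 in FRC1, with 4, 9 and 4 in SRC3. Its fall in SRC3 was 3.17-fold against PAR (log2 fold change -1.66, SE 0.4; adjusted p = 0.0027) and 3.65-fold against FRC1 (adjusted p = 8.8e-04), resting on 17 reads in the SRC3 libraries.

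Of the membrane-bound semaphorins that were tested, Sema5a changed the most. Sema5a (chromosome 15, 32244810 to 32696341, GRCm38), a transmembrane semaphorin with thrombospondin repeats, stood at 43.9, 38.4 and 42.8 CPM in PAR, 28.8, 23.1 and 23.5 in FRC1, with 91.5, 85.3 and 109 in SRC3. The groups did not overlap anywhere, with FRC1 lowest and SRC3 highest. It fell 1.66-fold in FRC1 against PAR (log2 fold change -0.73, SE 0.11; adjusted p = 1.3e-04), rose 2.28-fold in SRC3 against PAR (log2 fold change 1.19, SE 0.094; adjusted p = 9.9e-08) and stood 3.79-fold higher in SRC3 than in FRC1 (log2 fold change 1.92, SE 0.1; adjusted p = 8.7e-10). Sema6a, a ligand of plexins A2 and A4, was at 62.5, 58.6 and 70.3 CPM in PAR, 38.1, 33.5 and 38.6 in FRC1, with 49.4, 49.5 and 54.4 in SRC3. Here the order was PAR, SRC3, FRC1 with no overlap, a fall of 1.74-fold in FRC1 (log2 fold change -0.80, SE 0.076; adjusted p = 3.2e-07) and of 1.249-fold in SRC3 (adjusted p = 0.0018), and SRC3 stood 1.39-fold above FRC1 (adjusted p = 7.3e-05).

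Sema6c and Sema6d, also of class 6, were lower in SRC3. Sema6c stood at 11.8, 9.49 and 8.67 CPM in PAR, 9.85, 8.26 and 7.13 in FRC1, with 5.13, 4.86 and 6.84 in SRC3, with SRC3 below both other groups. Its fall was 1.78-fold against PAR (log2 fold change -0.83, SE 0.16; adjusted p = 4.4e-04) and 1.496-fold against FRC1 (adjusted p = 0.011; lost without FRC1 replicate 1 (0.06) or without SRC3 replicate 1 (0.06)). Sema6d stood at 28.9, 32.3 and 32.8 CPM in PAR, 39.2, 36.5 and 36.1 in FRC1, with 24.1, 23.1 and 29.5 in SRC3, higher in FRC1 than in PAR (adjusted p = 0.035; lost with DESeq2 (0.062), without PAR replicate 1, 2 or 3 (0.18, 0.063 and 0.052) or without FRC1 replicate 1, 2 or 3 (0.095, 0.062 and 0.065)). In SRC3 it was lower than in PAR (adjusted p = 0.014; lost without PAR replicate 2 or 3 (0.056 and 0.068) or without SRC3 replicate 1 or 2 (0.076 and 0.071)), with replicate 3 inside the PAR range. Sema6b had 30, 13 and 23 reads in PAR, 35, 11 and 32 in FRC1, with 9, 10 and 11 in SRC3. FRC1 replicate 2 matched the SRC3 libraries, while replicates 1 and 3 held the highest counts of all 9. The fall of 2.48-fold in SRC3 against FRC1 passed (adjusted p = 0.023) and was lost with limma voom (0.077), without FRC1 replicate 1 or 3 (0.1 and 0.094) or without SRC3 replicate 1 (0.088), and that against PAR did not pass (adjusted p = 0.063), though it did with no filter (0.014), with the replicate block (0.025), in a fit of the 2 groups alone (0.021), without PAR replicate 2 (0.032) or without FRC1 replicate 1 or 2 (0.044 and 0.019).

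Sema7a, the GPI-anchored semaphorin that binds plexin C1 and integrin beta 1, had the highest level per kb among the semaphorins and was higher in FRC1. It stood at 178, 196 and 181 CPM in PAR, 261, 245 and 237 in FRC1, with 202, 224 and 177 in SRC3. FRC1 lay above every other library, 1.34-fold above PAR (log2 fold change 0.42, SE 0.07; adjusted p = 3.7e-04), and SRC3 spread across the PAR range (adjusted p = 0.2, which passed without SRC3 replicate 3 (0.0082)). Its receptor gene Plxnc1 was near the limit of detection, with 8, 10 and 7 reads in the PAR libraries.

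Class 4 semaphorins, transmembrane ligands of B plexins among other receptors, changed by less than 2-fold in every comparison that passed. Sema4c, the highest of them per kb in PAR and FRC1 (10.7 and 9.45 CPM per kb, with Sema4b above it in SRC3 at 10.7 against 9.61), stood at 48.2, 48.4 and 51.0 CPM in PAR, 43.1, 40.4 and 46.6 in FRC1, with 43.4, 44.0 and 44.9 in SRC3. Both reserve groups lay below PAR by small steps, and in FRC1 the 1.13-fold fall passed narrowly (adjusted p = 0.043) and was lost with library sizes alone (0.055), with no filter (0.06), with DESeq2 (0.087), without PAR replicate 1, 2 or 3 (0.074, 0.069 and 0.15), without FRC1 replicate 1 or 2 (0.081 and 0.18) or without SRC3 replicate 1 (0.051). Sema4b was at 45.1, 49.6 and 51.5 CPM in PAR, 44.2, 34.1 and 35.1 in FRC1, with 59.4, 64.3 and 57.0 in SRC3. FRC1 was lowest and SRC3 highest with no overlap, 1.29-fold below PAR (log2 fold change -0.37, SE 0.088; adjusted p = 0.0045) and 1.24-fold above it (log2 fold change 0.31, SE 0.085; adjusted p = 0.0085). Sema4d, the main plexin B1 ligand, had 29, 30 and 25 reads in PAR, 46, 37 and 52 in FRC1, with 34, 24 and 39 in SRC3. FRC1 lay 1.60-fold above PAR with no overlap (log2 fold change 0.68, SE 0.23; adjusted p = 0.034), a call lost with DESeq2 (0.09), without PAR replicate 1 or 3 (0.089 and 0.12) or without FRC1 replicate 1 or 3 (0.074 and 0.14). Sema4a had 22, 27 and 23 reads in FRC1 and 13, 7 and 16 in SRC3, 1.91-fold lower in SRC3 (adjusted p = 0.03), lost with DESeq2 (0.091), without FRC1 replicate 2 or 3 (0.09 and 0.06) or without SRC3 replicate 1 or 2 (0.07 and 0.13).

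Plexins held the largest rise among the tested members. Plxna4 (chromosome 6, 32144268 to 32588192), a receptor for class 3 and class 6 semaphorins, stood at 0.56, 0.536 and 0.64 CPM in PAR, 0.606, 0.49 and 0.713 in FRC1, with 23.5, 24.1 and 24.4 in SRC3. The reads behind these levels were 8, 7 and 9 for PAR, 8, 7 and 10 for FRC1 and 321, 313 and 321 for SRC3. PAR and FRC1 overlapped at a few reads per library, and the SRC3 libraries lay close together far above them. The rise was 40.8-fold against PAR (log2 fold change 5.35, SE 0.17) and 39.3-fold against FRC1 (log2 fold change 5.30, SE 0.17). Plxna4 reached the read minimum for testing through SRC3 alone, so it had to differ once tested, and these values are a description with no p. PAR and FRC1, at 7 to 10 reads per library, did not pass against each other. Of its exonic bases, 0.78% lie over an antisense gene, Plxna4os3.

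Plxna2, a plexin that shares Sema6a as a ligand with Plxna4, fell instead. It was at 36.7, 38.6 and 41.2 CPM in PAR, 21.4, 19.2 and 22.7 in FRC1, with 14.8, 16.8 and 14.37 in SRC3. The groups were ordered PAR, FRC1, SRC3 without overlap, with falls of 1.84-fold in FRC1 (log2 fold change -0.88, SE 0.084; adjusted p = 3.2e-07) and 2.53-fold in SRC3 (log2 fold change -1.34, SE 0.089; adjusted p = 2.6e-10), and of 1.38-fold from FRC1 to SRC3 (adjusted p = 7.0e-04). The summed level of the A plexins per kb was mostly Plxna1, and stood at 82.8 ± 2.70 CPM per kb in PAR, 80.7 ± 7.56 in FRC1 and 75.1 ± 5.86 in SRC3.

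Plxna1, the most abundant plexin gene, was at 658, 667 and 692 CPM in PAR, 738, 607 and 642 in FRC1, with 582, 648 and 558 in SRC3. SRC3 lay just below PAR (log2 fold change -0.17; adjusted p = 0.052), which passed with no filter (0.0017), with DESeq2 (0.04), with limma voom (0.04), in a fit of the 2 groups alone (0.018), without FRC1 replicate 1 or 2 (0.012 and 0.029) or without SRC3 replicate 2 (0.0082). SRC3 against FRC1 (adjusted p = 0.094) passed with no filter (0.0091), without FRC1 replicate 2 (0.024) or without SRC3 replicate 2 (0.017). A gene on the other strand, Gm26811, covers 10.7% of its exonic bases. Plxnb2 stood at 332, 331 and 325 CPM in PAR, 358, 310.3 and 333 in FRC1, with 307, 332 and 299.6 in SRC3, and passed in no comparison (adjusted p = 0.83, 0.29 and 0.2). Plxnb1, the Sema4d receptor, was at 20.5, 19.7 and 20.8 CPM in PAR, 30.0, 31.7 and 38.9 in FRC1, with 35.2, 36.1 and 39.1 in SRC3. All 6 reserve libraries lay above PAR, by 1.65-fold in FRC1 (log2 fold change 0.72, SE 0.092; adjusted p = 9.8e-06) and 1.81-fold in SRC3 (log2 fold change 0.85, SE 0.092; adjusted p = 3.3e-07), and SRC3 against FRC1 (adjusted p = 0.26) passed without FRC1 replicate 3 (0.024). Plxnd1, the Sema3e receptor, was at 22.4, 25.3 and 23.2 CPM in PAR, 19.1, 21.3 and 19.1 in FRC1, with 17.0, 17.0 and 21.3 in SRC3. It fell 1.28-fold in SRC3 (adjusted p = 0.0069); the FRC1 libraries also lay below PAR without passing (adjusted p = 0.059), and passed in a fit of the 2 groups alone (0.031), without FRC1 replicate 2 (0.048) or without SRC3 replicate 2 or 3 (0.043 and 0.031).

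The neuropilins, co-receptors shared by class 3 semaphorins and VEGF, moved in opposite directions in SRC3. Nrp2 (chromosome 1, 62703285 to 62818695) stood at 26.2, 28.03 and 27.4 CPM in PAR, 21.4, 19.5 and 19.5 in FRC1, with 57.3, 63.3 and 61.8 in SRC3. The groups did not overlap, with FRC1 lowest and SRC3 highest. The fall in FRC1 was 1.35-fold (log2 fold change -0.44, SE 0.077; adjusted p = 3.1e-04), the rise in SRC3 was 2.23-fold against PAR (log2 fold change 1.16, SE 0.069; adjusted p = 5.7e-11), and SRC3 stood 3.02-fold above FRC1 (log2 fold change 1.60, SE 0.072; adjusted p = 7.1e-13). Nrp1 was at 51.0, 48.2 and 54.9 CPM in PAR, 50.3, 50.2 and 47.9 in FRC1, with 37.4, 34.5 and 40.1 in SRC3. It was 1.38-fold lower in SRC3 than in PAR (log2 fold change -0.46, SE 0.07; adjusted p = 2.8e-05) and 1.33-fold lower than in FRC1 (adjusted p = 1.4e-04), and FRC1 overlapped PAR (adjusted p = 0.59). Per kb of exons, Nrp1 was above Nrp2 in PAR (5.25 against 2.30 CPM per kb) and below it in SRC3 (3.81 against 5.13).

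**Figure D3:**
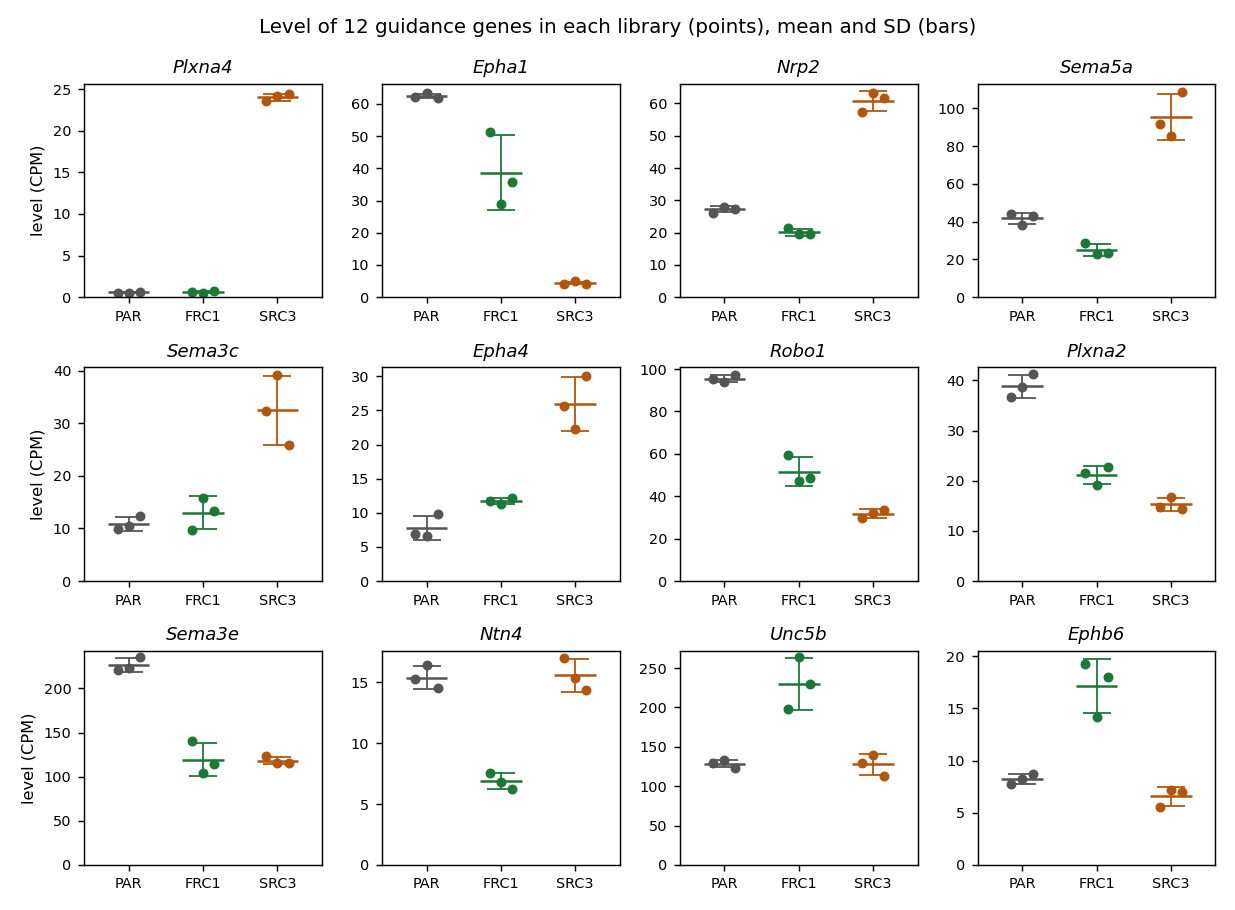
Level in CPM (y axis, from 0) of 12 guidance genes in each library of PAR, FRC1 and SRC3 (points), with the group mean and SD (bars). Plxna4 is near 0 outside SRC3, where it lies between 23.5 and 24.4 CPM; Ntn4, Unc5b and Ephb6 set FRC1 apart from both other groups.

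All 3 tested B ephrins, transmembrane ligands that also signal into the cell that carries them, rose in FRC1. Efnb2, the highest per kb, stood at 104, 100.004 and 107 CPM in PAR, 118, 122 and 119 in FRC1, with 105, 113 and 113 in SRC3. FRC1 was 1.15-fold above PAR without overlap (log2 fold change 0.21, SE 0.052; adjusted p = 0.0053), and SRC3 overlapped PAR (adjusted p = 0.19). Efnb1 was at 39.5, 35.6 and 38.9 CPM in PAR, 51.0, 52.6 and 50.9 in FRC1, with 41.1, 49.1 and 43.0 in SRC3. It rose 1.35-fold in FRC1 (log2 fold change 0.44, SE 0.071; adjusted p = 1.4e-04) and 1.17-fold in SRC3 (adjusted p = 0.02; lost without PAR replicate 2 (0.094) or without SRC3 replicate 2 (0.11)). SRC3 was lower than FRC1 (adjusted p = 0.025; lost with DESeq2 (0.054), without FRC1 replicate 2 or 3 (0.084 and 0.068) or without SRC3 replicate 1 or 3 (0.16 and 0.071)). Efnb3 was rare, with 7, 3 and 3 reads in the PAR libraries, 14, 25 and 17 in FRC1, with 19, 20 and 18 in SRC3. Each reserve library held more reads than any PAR library, a rise of 4.20-fold in FRC1 (log2 fold change 2.07, SE 0.4; adjusted p = 7.5e-04) and 4.47-fold in SRC3 (log2 fold change 2.16, SE 0.4; adjusted p = 2.5e-04).

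Of the A ephrins, which are GPI-anchored, only Efna3 changed by at least 2-fold. Efna4, the highest per kb, stood at 19.5, 19.0 and 20.3 CPM in PAR, 18.9, 19.8 and 19.3 in FRC1, with 17.9, 17.4 and 18.2 in SRC3 and passed in no comparison. Efna1, a ligand of Epha2, was at 6.51, 6.97 and 5.54 CPM in PAR, 7.96, 8.75 and 9.41 in FRC1, with 8.80, 8.87 and 7.98 in SRC3. All reserve libraries lay above PAR, by 1.38-fold in FRC1 (log2 fold change 0.46, SE 0.13; adjusted p = 0.014; lost without PAR replicate 3 (0.082) or without FRC1 replicate 3 (0.076)) and 1.35-fold in SRC3 (adjusted p = 0.015; lost without PAR replicate 3 (0.078)). Efna5 was 23.8 ± 1.51 CPM in PAR, 21.9 ± 1.37 in FRC1, with 18.3 ± 0.718 in SRC3, lower in SRC3 than in PAR (adjusted p = 0.0018) and than in FRC1 (adjusted p = 0.026; lost with DESeq2 (0.074), in a fit of the 2 groups alone (0.05), without FRC1 replicate 2 or 3 (0.051 and 0.15) or without SRC3 replicate 2 or 3 (0.065 and 0.074)). Efna3 had 12, 19 and 24 reads in PAR, 11, 26 and 26 in FRC1, with 11, 2 and 9 in SRC3. It was 2.38-fold lower in SRC3 than in PAR (adjusted p = 0.039; lost with DESeq2 (0.052), without PAR replicate 2 or 3 (0.1 and 0.16) or without SRC3 replicate 2 (0.15)) and 2.71-fold lower than in FRC1 (adjusted p = 0.018; lost without FRC1 replicate 2 or 3 (0.071 and 0.084) or without SRC3 replicate 2 (0.075)). An antisense gene, Gm15998, covers 14.1% of the exonic bases of Efna3, and 4731419I09Rik covers 10.5% of those of Efna4.

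The Eph receptors of the A class held the largest fall among the tested members. Epha1 (chromosome 6, 42358487 to 42373268) stood at 62.2, 63.3 and 62.0 CPM in PAR, 51.4, 28.8 and 35.8 in FRC1, with 4.11, 4.94 and 4.18 in SRC3. The PAR libraries agreed closely, the FRC1 libraries spread widely below them with replicate 1 nearest to PAR, and the SRC3 libraries lay far below both. The fall was 14.2-fold in SRC3 against PAR (log2 fold change -3.82, SE 0.24; adjusted p = 2.2e-06), 8.74-fold against FRC1 (log2 fold change -3.13, SE 0.25; adjusted p = 1.4e-05) and 1.62-fold in FRC1 against PAR (log2 fold change -0.70, SE 0.17; adjusted p = 0.016), the last lost in a fit of the 2 groups alone (0.077) or without FRC1 replicate 3 (0.055). Exons of Zyx, on the other strand, cover 6.01% of the exonic bases of Epha1, and the strand setting of the counting is not given. Zyx itself stood at 1305 ± 61.2 CPM in PAR, 1172 ± 73.4 in FRC1 (adjusted p = 0.085) and 576 ± 58.2 in SRC3 (log2 fold change -1.18; adjusted p = 5.9e-10), a smaller step than that of Epha1. The part of the overlap in the result was not tested.

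Epha4, a receptor that binds ephrins of both classes, rose stepwise. It was at 6.93, 6.59 and 9.81 CPM in PAR, 11.7, 11.3 and 12.1 in FRC1, with 25.7, 22.2 and 30.1 in SRC3, with no overlap between groups. The rise was 1.502-fold in FRC1 (log2 fold change 0.59, SE 0.15; adjusted p = 0.0068) and 3.33-fold in SRC3 (log2 fold change 1.74, SE 0.14; adjusted p = 8.0e-09), and SRC3 stood 2.22-fold above FRC1 (log2 fold change 1.15, SE 0.13; adjusted p = 1.1e-06). Epha4 was the only tested member called higher in all 3 comparisons. Epha2, the most abundant Eph receptor gene per kb, stood at 322, 343 and 355 CPM in PAR, 373, 376 and 372 in FRC1, with 328, 365 and 356 in SRC3. Its 1.10-fold rise in FRC1 was small (adjusted p = 0.047) and was lost with RLE size factors (0.051), with DESeq2 (0.064), without PAR replicate 1 or 2 (0.26 and 0.11) or without FRC1 replicate 1, 2 or 3 (0.066, 0.12 and 0.12). Epha7 was 3.33 ± 0.628 CPM in PAR and 1.92 ± 0.613 in SRC3, lower there (adjusted p = 0.023; lost without PAR replicate 2 or 3 (0.11 and 0.054) or without SRC3 replicate 1 (0.13)), and FRC1 against PAR (adjusted p = 0.079) passed with the replicate block (0.029) or without FRC1 replicate 2 (0.04).

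Among the tested B class Eph receptors the kinase-inactive Ephb6 changed the most. It stood at 7.77, 8.19 and 8.74 CPM in PAR, 19.2, 14.2 and 17.96 in FRC1, with 5.50, 7.17 and 6.99 in SRC3. FRC1 lay above all other libraries, 2.08-fold above PAR (log2 fold change 1.05, SE 0.13; adjusted p = 6.5e-06) and 2.61-fold above SRC3 (adjusted p = 1.0e-07), and SRC3 lay below PAR without passing (adjusted p = 0.087). Ephb4, the receptor of ephrin B2 known from vein formation, was at 68.5, 67.7 and 70.0 CPM in PAR, 64.3, 58.9 and 61.8 in FRC1, with 57.9, 63.8 and 67.8 in SRC3. It passed in no comparison, though FRC1 against PAR did in a fit of the 2 groups alone (0.034), without FRC1 replicate 1 (0.049) or without SRC3 replicate 1 or 3 (0.048 and 0.044) and SRC3 against PAR did without SRC3 replicate 3 (0.04). Ephb2 was 91.3 ± 3.53 CPM in PAR, 99.6 ± 5.84 in FRC1, with 90.7 ± 1.55 in SRC3. It also passed in none (adjusted p = 0.099, 0.9 and 0.067), apart from FRC1 against PAR and SRC3 against FRC1 without FRC1 replicate 1 (0.044 and 0.033). Ephb3 was 3.81 ± 0.281 CPM in PAR and 2.67 ± 0.577 in SRC3, lower there at the edge of the threshold (adjusted p = 0.045; lost with no filter (0.069), with DESeq2 (0.13), in a fit of the 2 groups alone (0.057), without PAR replicate 1, 2 or 3 (0.067, 0.086 and 0.14), without FRC1 replicate 2 or 3 (0.052 and 0.055) or without SRC3 replicate 1 or 3 (0.13 and 0.16)), and SRC3 against FRC1 (adjusted p = 0.12) passed without SRC3 replicate 2 (0.045).

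Netrins fell in FRC1 while the netrin receptor gene Unc5b rose there. Ntn1, the gene of the founding netrin, stood at 141, 139 and 149 CPM in PAR, 110.1, 91.3 and 104 in FRC1, with 126, 129 and 122 in SRC3. FRC1 was lowest, 1.403-fold below PAR (log2 fold change -0.49, SE 0.061; adjusted p = 7.6e-06) and 1.23-fold below SRC3 (adjusted p = 6.8e-04), and SRC3 was 1.14-fold below PAR (adjusted p = 0.02; lost without PAR replicate 3 (0.11) or without SRC3 replicate 1 or 3 (0.06 and 0.056)). Ntn4, a basement membrane netrin that binds laminin, was at 15.3, 16.4 and 14.5 CPM in PAR, 7.58, 6.79 and 6.27 in FRC1, with 17.0, 15.3 and 14.37 in SRC3. FRC1 stood apart again, 2.24-fold below PAR (log2 fold change -1.16, SE 0.12; adjusted p = 5.5e-07). It was 2.27-fold below SRC3 (log2 fold change of SRC3 against FRC1 1.18, SE 0.12; adjusted p = 1.2e-07), with PAR and SRC3 overlapping (adjusted p = 0.9).

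Unc5b was at 129, 133 and 124 CPM in PAR, 198, 264 and 229 in FRC1, with 129.9, 140.2 and 113 in SRC3. All FRC1 libraries lay above the others, with replicate 1 lowest. FRC1 was 1.79-fold above PAR (log2 fold change 0.84, SE 0.1; adjusted p = 2.3e-04). It was 1.80-fold above SRC3 (log2 fold change of SRC3 against FRC1 -0.85, SE 0.1; adjusted p = 1.2e-04). SRC3 overlapped PAR (adjusted p = 0.95). Unc5c, another repulsive netrin receptor, had 19, 28 and 30 reads in the PAR libraries, 10, 12 and 13 in FRC1, with 7, 3 and 2 in SRC3. The groups stepped down without overlap in CPM, 2.20-fold in FRC1 (log2 fold change -1.13, SE 0.32; adjusted p = 0.012; lost with DESeq2 (0.055) or without PAR replicate 2 or 3 (0.054 and 0.06)) and 6.02-fold in SRC3 (log2 fold change -2.59, SE 0.4; adjusted p = 3.7e-05). Without SRC3 replicate 1, which held 7 of the 12 SRC3 reads, the fall against PAR was 9.29-fold. The step from FRC1 to SRC3 was 2.74-fold (adjusted p = 0.023), 4.22-fold without SRC3 replicate 1, and was lost without FRC1 replicate 3 (0.072) or without SRC3 replicate 2 or 3 (0.067 and 0.099). Dcc, the attractive netrin receptor, had no read in any library, which allows up to 0.21 to 0.231 CPM in each. Neo1, the neogenin gene, fell from 284 ± 12.7 to 211 ± 7.61 CPM in FRC1 (adjusted p = 2.9e-06) and rose 1.29-fold above PAR in SRC3, to 366 ± 13.3 CPM (adjusted p = 5.1e-06), which is 1.74-fold above FRC1 (adjusted p = 1.0e-10).

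Robo receptors changed in opposite directions. Robo1 (chromosome 16, 72308306 to 73046095) stood at 95.1, 94.0 and 97.4 CPM in PAR, 59.4, 47.0 and 48.5 in FRC1, with 29.6, 32.2 and 33.6 in SRC3. The groups did not overlap and stepped down from PAR to FRC1 to SRC3. The fall was 1.85-fold in FRC1 (log2 fold change -0.89, SE 0.073; adjusted p = 8.6e-08), 3.00-fold in SRC3 (log2 fold change -1.59, SE 0.078; adjusted p = 2.7e-12) and 1.62-fold from FRC1 to SRC3 (log2 fold change -0.70, SE 0.081; adjusted p = 1.2e-06). Robo2, a lower-level paralogue on the same chromosome, had 6, 16 and 26 reads in the PAR libraries, 26, 21 and 32 in FRC1, with 71, 44 and 76 in SRC3. The PAR libraries spread over a wide range, FRC1 overlapped them (adjusted p = 0.19, which passed without PAR replicate 3 (0.047)), and SRC3 was above both. The rise in SRC3 was 4.11-fold against PAR (log2 fold change 2.04, SE 0.33; adjusted p = 1.3e-04) and 2.51-fold against FRC1 (log2 fold change 1.33, SE 0.3; adjusted p = 0.0026). Per kb of exons Robo1 still exceeded Robo2 in SRC3, at 1.93 against 0.282 CPM per kb. Slit2, their ligand, was at 2.73, 2.91 and 3.98 CPM in PAR, 3.79, 3.36 and 2.57 in FRC1, with 1.91, 2.78 and 3.12 in SRC3, all overlapping (adjusted p = 0.98, 0.32 and 0.32). Slit1 had 3 reads in the 9 libraries together and Slit3 none.

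Set side by side over the 3 comparisons, 39 of the 48 tested members were called in at least 1, 13 in all 3 and 9 in none. The first is 81.2% of them against 55.2% of all tested genes, and the second 27.1% against 6.75%. The last were Efna2, Efna4, Ephb2, Ephb4, Plxna1, Plxna3, Plxnb2, Sema4g and Slit2. Of those not yet given, Efna2 stood at 2.01 ± 0.46 CPM in PAR and 2.47 ± 0.0691 in SRC3, Plxna3 at 49.1 ± 4.95 and 52.6 ± 6.17, and Sema4g at 0.814 ± 0.266 and 0.655 ± 0.29. Epha1, Plxna2, Robo1 and Unc5c, all receptor genes, were lower in FRC1 than in PAR and lower again in SRC3 than in FRC1. Ntn1, Sema3a and Sema6a, all ligand genes, were lower than PAR in both reserve populations with FRC1 the lower of them. Ntn4 and Sema3b were called lower in FRC1 than in both other groups, and Ephb6, Sema7a and Unc5b higher in FRC1 than in both. Efna1, Efnb3 and Plxnb1 were higher and Sema3e lower than PAR in each reserve population, with no call between these populations. Some calls behind these groupings were lost in some alternatives, as given above. These were Sema3a and Ntn1 in SRC3 against PAR, Epha1 in FRC1 against PAR, and Efna1 in both comparisons with PAR. Unc5c lost its call in FRC1 against PAR and in SRC3 against FRC1. Robo2 and Sema3c were called higher in SRC3 than in both other groups. Plxna4 was too, but it had to differ once tested. It is among the 39 above and among the receptor genes counted as higher in SRC3 below. By role, 7 of 27 tested ligand genes were higher and 9 lower in FRC1 against PAR, with 5 and 5 of 21 receptor genes, where 13.6% of all tested genes were higher and 14.7% lower. In SRC3 against PAR, 6 ligand genes were higher and 9 lower, with 5 and 8 receptor genes (17.8% and 20.2% of all tested genes). In SRC3 against FRC1 the counts were 8 and 9 ligand genes and 4 and 7 receptor genes (15.5% and 18% of all tested genes).

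The 21 rows that were not tested add little expression. Epha6, Epha10, Robo4, Sema5b, Slit3, Unc5d and the 3 Ntn5 rows had no read in any library, which allows up to 0.0723 to 0.0755 CPM over the 3 libraries of a group. Sema4f was the exception in FRC1, with 4, 0 and 1 reads in the PAR libraries, 4, 29 and 17 in FRC1, with 3, 3 and 6 in SRC3. FRC1 replicate 1 matched PAR replicate 1, and replicates 2 and 3 held 29 and 17 of the 50 FRC1 reads. The ratio of the summed counts of FRC1 to PAR was 9.98 (95% exact counting interval 4.00 to 32.1). Plxnc1 had 25 reads over PAR, 22 over FRC1 and 7 over SRC3, a fold of 3.43 lower in SRC3 than in PAR (interval 1.44 to 9.39). Robo3 had 16 reads over PAR, 3 over FRC1 and 8 over SRC3, a fold of 5.35 lower in FRC1 (interval 1.53 to 28.6). Epha5 had 9 reads over PAR, 8 over FRC1 and none over SRC3. With 3 counts put in for the whole SRC3 group it was 2.88-fold lower there than in PAR. This takes the 9 PAR reads as exact, so the true fold may be smaller. These intervals and bounds hold for counting error alone. They pool the reads of a group and leave out the spread between its libraries, which was more than sampling noise. No molecular identifiers are described either, so the intervals are too narrow.

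Other genes of these pathways were taken from a list of 96 co-receptors, further ligands and effectors, of which 95 were found and 80 tested. The list was drawn up with earlier results of these data known, so its shares are a description. In FRC1 against PAR 15 were higher and 17 lower, 40% of the 80 against 28.3% of all tested genes. In SRC3 against PAR 14 were higher and 31 lower, 56.2% against 37.9%, and in SRC3 against FRC1 18 and 26, 55% against 33.5%. The list had median log2 fold changes of -0.037, -0.077 and -0.086. In SRC3 against PAR, 37.9% of all tested genes passed, 17.8% higher and 20.2% lower. Of the 16 small GTPase and actin effector genes, 1 was higher and 9 lower there, 62.5%. Semaphorin-plexin effectors had 4 higher and 8 lower of 20 (60%), and Eph-ephrin effectors 3 and 7 of 17 (58.8%). Semaphorin co-receptors had 2 and 4 of 7 (85.7%), and netrin and repulsive guidance genes 3 and 0 of 5 (60%). Slit-Robo effectors had 1 and 2 of 11 (27.3%), and ectodomain proteases 0 and 1 of 4 (25%). Of the small GTPase and actin effector genes, 0 were higher and 5 lower in FRC1 against PAR, 31.2%, close to the 28.3% of all tested genes. In SRC3 against FRC1, 2 of these genes were higher and 6 lower, 50% against 33.5%.

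Among these partners L1cam, an adhesion molecule in the receptor complex of Sema3a and neuropilin 1, rose 1.63-fold in FRC1 (adjusted p = 0.0024), and between PAR and SRC3 its level went up from 4.48 ± 0.321 to 20.2 ± 2.61 CPM (log2 fold change 2.17, SE 0.14; adjusted p = 1.4e-10). The FLRT genes, whose products bind Unc5 and Robo receptors, were higher in SRC3: Flrt2 from 142 ± 12.4 to 364 ± 20.8 CPM (log2 fold change 1.36, SE 0.069; adjusted p = 8.6e-11) and Flrt3 from 1.06 ± 0.0113 to 5.19 ± 0.401 CPM (log2 fold change 2.28, SE 0.25; adjusted p = 5.7e-07). Rgs3, which acts below ephrin B, fell 1.404-fold in FRC1 (adjusted p = 0.02), lost with DESeq2 (0.069), without PAR replicate 1 or 2 (0.057 and 0.057) or without FRC1 replicate 2 or 3 (0.06 and 0.057). Ngef, the gene of ephexin, an exchange factor that acts below Epha4, rose 1.47-fold in FRC1 (adjusted p = 3.2e-05) and 2.90-fold in SRC3, from 25.3 ± 2.53 to 73.4 ± 3.07 CPM (adjusted p = 2.2e-12). Mical2 and Dpysl3, genes of semaphorin effectors, rose 1.62-fold and 1.60-fold in FRC1 (adjusted p = 4.3e-04 and 0.0067). Nrcam, an adhesion molecule that binds neuropilin 2, fell 2.11-fold in FRC1, from 140.4 ± 3.82 to 66.5 ± 9.94 CPM (adjusted p = 1.6e-07), and was 1.27-fold below PAR in SRC3 (adjusted p = 0.002). Ablim1, whose product links actin, fell 2.38-fold in FRC1 (adjusted p = 0.0038) and stood 2.33-fold higher in SRC3 than in FRC1 (adjusted p = 0.0033). The exchange factor gene Vav3, which acts below Eph receptors, fell 2.02-fold in SRC3 against PAR (adjusted p = 4.4e-07), followed by Kalrn (1.69-fold), Ssh1 (1.67-fold) and Mical1 (1.63-fold). Vegfa and Pgf, genes of growth factors that bind neuropilins, were 1.80-fold and 1.86-fold lower in SRC3 than in FRC1 (adjusted p = 2.7e-04 and 8.2e-05), and the VEGF receptor gene Kdr had no read.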

How the data were processed

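The deposited values are raw counts of reads by gene, 1 file for each of the 9 libraries. They are TruSeq stranded mRNA libraries per the labels' protocols, read as single 50 nt reads per the series' design text. Alignment and counting tools listed by the submitters' processing notes are HISAT2 2.1.0 and HTSeq 0.9.1, beside DESeq2 and the build GRCm38; the settings, strand included, are not given in these sources. The 5 summary lines of each file were left out, of which reads in no gene and ambiguous reads made up 5.92 to 7.92% and 1.18 to 1.21% of gene, no-gene and ambiguous reads together. The members, lists and naming rule were chosen with earlier results of these data known. All genes were fitted together in R 4.3.3 with edgeR 4.0.16 (TMM factors, default count filter, robust quasi-likelihood test, two-sided, group as the term, 6 residual degrees of freedom, adjusted by Benjamini-Hochberg over 12540 genes, threshold 0.05), on the counts as deposited. Adjusted p in the text are from this test. The filter asks for the CPM of 10 counts at the median library size in at least 3 libraries, and for 15 counts in total. SE is the log2 fold change over the root of F. Exon lengths and overlaps came from GENCODE M21, matched by identifier. Replicate pairs differed by more than sampling noise (chi-square per degree of freedom 1.81 to 7.47). The full per-library values were given for members with the 8 largest rises or falls in a comparison, at least a 2-fold change or the top level per kb of a family; partner genes were the 4 largest rises and falls at 5 CPM or more. The fit was also run on counts simulated from its own model and spread, which cannot show whether that model suits these libraries. Alternatives were RLE factors, library sizes alone, no filter or 5 CPM in 3 libraries, DESeq2 1.42.0, limma 3.58.1 voom, fits of 2 groups, a replicate block and each library left out.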

Additional observations from a re-analysis of the deposited data

Results flagged for a closer look

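For 4 members the difference from PAR had opposite signs in the reserve populations and each call passed. The change of SRC3 against FRC1 is the difference of those changes. Its call was therefore nearly fixed by the choice of these members and adds no support. The share of all tested genes with this pattern is not given. The log2 fold change of SRC3 against FRC1 was 1.92 for Sema5a, 1.60 for Nrp2, 0.67 for Sema4b and -0.54 for Sema6d (adjusted p = 8.7e-10, 7.1e-13, 8.2e-06 and 6.7e-05). Sema5a, Nrp2 and Sema4b were lower in FRC1 and higher in SRC3 than in PAR, and Sema6d the reverse; both Sema6d calls against PAR were lost in some of the alternatives.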

How the results depend on the processing

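Over 17 alternatives, 144 results of the 48 tested members were recomputed. Of 82 called results, 60 kept the call in every alternative that tested them, 22 lost it in at least 1, and 0 reversed. The 82 and the 60 include the SRC3 results of Plxna4, which had to differ once tested. Of the 62 that were not called, 13 passed in at least 1. Of 121 called results of partner genes, 32 lost the call in at least 1 and 0 reversed; none of these 32 is named with its call except Rgs3 in FRC1. Leaving out each library in turn gave 21 to 29 members called in FRC1 against PAR, 21 to 30 in SRC3 against PAR and 23 to 29 in SRC3 against FRC1. For all genes this gave 2327 to 3987, 3845 to 4924 and 3371 to 4281, the lowest in FRC1 against PAR being without FRC1 replicate 3. With the stricter filter fewer members were tested and 23, 20 and 22 were called. DESeq2 called 21, 27 and 25. The shares of all tested genes called in these settings, and with the replicate block below, are not given here. These counts therefore do not show how the members compare with all genes there. The labels tie same-numbered libraries by their number alone. Their deviations from the group means correlated at -0.0704 to 0.118. In 14 of 18 cases a library correlated best, among the 3 libraries of another group, with that of its own number. A batch or culture shared by a number was not tested, and the main fit has no term for it. With the replicate block 27, 29 and 28 members were called. Among tested members, depth limits Efnb3 in PAR, Plxna4 in PAR and FRC1, and Unc5c and Sema3d in SRC3 to 10 or fewer reads per library.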
